A study of Homo sapiens with 11 samples.

Results

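The 10 genes described here are grouped as immediate early transcription factors: FOS, FOSB and FOSL1, JUN, JUNB and JUND, EGR1, EGR2 and EGR3, and IER2. They were chosen by symbol, with earlier results of these data known, as every entry of the deposited count table carrying one of these names. They make up 10 of the 38021 genes in the table. All 10 passed the filter on low counts and are among the 17793 genes tested. The cells were HEK293T, an established human embryonic kidney line that carries adenovirus E1A and E1B sequences and the SV40 large T antigen, so every condition shares this background. Each condition lasted 6 h. The conditions were vehicle (V, 0.1% DMSO), thapsigargin (Tg, 500 nM, spelled Thapsigargain in the labels), AA147 at 10 µM, and AA132 at 0.1, 0.3, 1, 3, 6, 10, 15 and 30 µM. Thapsigargin inhibits SERCA, the pump that loads calcium into the endoplasmic reticulum (ER), and is a standard inducer of ER stress. AA147 and AA132 are compounds of interest as activators of the ER stress response. The series has 1 sample in each of the 11 conditions and the table has 3 numbered columns for each, which were treated as replicate libraries (n = 3). The labels do not say whether these were separate cultures, so p-values measure the spread between these libraries, which may be technical. With a single time point, a transient early peak of these genes was not measured.

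Immediate early genes are transcribed within minutes of a stimulus without new protein synthesis, and most of their transcripts are short-lived. Growth factor and stress signals reach them through mitogen-activated protein kinases, serum response factor (SRF) with its ETS partners, and CREB and ATF proteins. FOS and JUN proteins pair through leucine zippers to form AP-1, which binds DNA at TGANTCA, and JUN proteins also pair with ATF proteins at TGACNTCA. EGR proteins bind GC-rich sites through zinc fingers, and IER2 is a small nuclear protein that regulates transcription.

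The 250 bases upstream of the annotated start are shown for FOS, JUN and EGR1, the members that differed in the largest number of comparisons or by the largest amount. They are written 5′ to 3′ on the strand of the gene, from RefSeq on GRCh38.p14, with matches to the motifs named below in capitals. The FOS window is chr14:75278578-75278827 on the plus strand, the JUN window chr1:58784048-58784297 on the minus strand, and the EGR1 window chr5:138465229-138465478 on the plus strand.
FOS: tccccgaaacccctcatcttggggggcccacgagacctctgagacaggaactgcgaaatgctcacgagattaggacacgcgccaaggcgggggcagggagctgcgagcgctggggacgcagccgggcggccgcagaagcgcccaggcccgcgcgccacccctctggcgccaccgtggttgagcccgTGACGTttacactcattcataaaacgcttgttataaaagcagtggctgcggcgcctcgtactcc
JUN: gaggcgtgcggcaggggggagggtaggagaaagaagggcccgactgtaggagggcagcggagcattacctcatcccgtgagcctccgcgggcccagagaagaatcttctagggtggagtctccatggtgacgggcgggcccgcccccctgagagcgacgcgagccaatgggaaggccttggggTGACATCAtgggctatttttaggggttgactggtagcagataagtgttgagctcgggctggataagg
EGR1: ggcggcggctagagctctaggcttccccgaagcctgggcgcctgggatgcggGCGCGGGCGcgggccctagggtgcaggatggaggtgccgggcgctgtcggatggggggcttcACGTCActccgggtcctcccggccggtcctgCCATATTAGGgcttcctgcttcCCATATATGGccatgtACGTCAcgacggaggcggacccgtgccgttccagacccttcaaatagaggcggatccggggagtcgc
In EGR1 the capitals mark, from left to right, the EGR motif GCGNGGGCG (positions -198 to -190 from the start), TGACGT on the opposite strand (-136 to -131), a pair of CArG boxes, the core that SRF binds (-105 to -96 and -83 to -74), and a second TGACGT on the opposite strand (-67 to -62). TGACGT, the core of the cyclic AMP response element that CREB and ATF proteins bind, is also marked in FOS (-64 to -59). The JUN window holds TGACNTCA as TGACATCA (-67 to -60).

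Among the 8 members with a promoter entry, searched on both strands over these 250 bases, CArG boxes were found in EGR1 and EGR2. TGACGT was found in FOS, FOSB, JUND, EGR1 and EGR2, and TGACNTCA in JUN and JUND. In JUND 1 site matches both of these motifs, which overlap. EGR2 has 3 annotated starts, and its matches lie at 1 of them. Of all 35116 upstream windows of the same length, 1.16% hold a CArG box, 7.10% TGACGT, 6.87% TGACNTCA and 8.415% GCGNGGGCG. The letters TGANTCA, TGATGNAA and TGACGTGG are not in the members' windows. A match is a description of sequence and not a measured binding site. Bases farther upstream were not searched, so a window without a match does not show that the gene lacks the motif.

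Library totals ran from 32.3 to 37.96 M counts. The markers VIM, KRT8, KRT18, NEFL, NEFM, NES and LIN28B, known from HEK293 cells, were detected in every library, while PAX2 was low (0.41 to 1.53 CPM, counts scaled to library size). Of the 7 markers of other cell types, COL1A1 had 19.7 to 49.9 CPM and the other 6 were at 0.57 CPM or less. The summed level of the 7, nearly all COL1A1, was 40.6 to 50.1 CPM in vehicle, 34.6 to 35.9 at 30 µM AA132 and 20.02 to 20.5 under Tg. The summed level of the 8 HEK293 markers was lower in the same conditions, with 2390 to 2953 CPM in vehicle, 2098 to 2286 at 30 µM AA132 and 1721 to 1798 under Tg. The part of either sum in the results was not tested. Libraries also differed in how level followed GC content. In vehicle library 1, log2 level rose with the GC content of transcripts by 0.21 per 10 percentage points, against -0.10 in vehicle library 2, -0.03 in vehicle library 3 and values between those bounds in all other libraries, so calls of the 10 members against vehicle are also given without vehicle library 1. The 3 Tg libraries had -0.08 to -0.09, lower than every library except vehicle library 2.

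Levels between the genes differed widely. Per kilobase of transcript, over all libraries, JUN was the highest (37.4 CPM per kb), followed by JUND (19.2), IER2 (11.6), EGR1 (5.99), FOSL1 (5.79), JUNB (5.40) and FOS (1.59). FOSB (0.35), EGR2 (0.25) and EGR3 (0.16) were the lowest. The last 3 had 31 to 75, 14 to 47 and 9 to 48 counts per library. JUN had 2952 to 5780 and FOS 54 to 277.

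**Figure D1:**
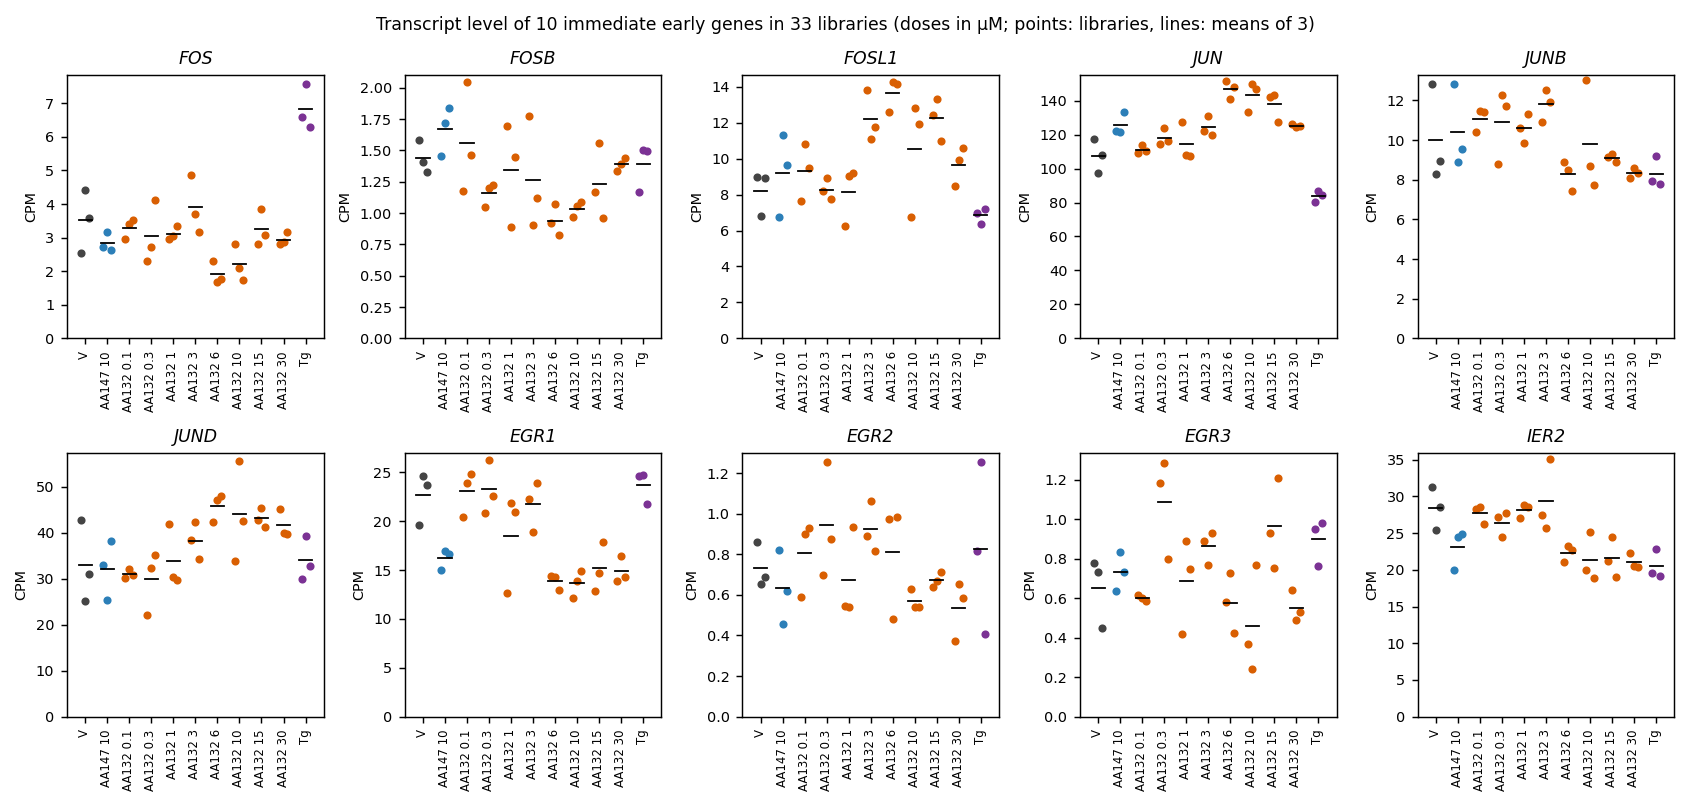
Level of each gene in CPM (y axis, starting at 0, own scale per gene) in the 33 libraries of the 11 conditions (x axis). Points are libraries and lines are means of 3. FOS is highest under Tg, JUN is lowest under Tg and highest at 6 µM AA132, and the EGR1 libraries at 6 to 30 µM AA132 lie below every vehicle library.

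The members did not move as 1 group. Under Tg, FOS was higher and JUN and IER2 were lower than in vehicle. At AA132 doses of 6 µM and above EGR1 was lower, at 6 to 15 µM JUN was higher, and at 15 and 30 µM IER2 was lower. At 6 µM FOS was also lower and FOSL1 higher. A call means an adjusted p under 0.05 in the quasi-likelihood test of edgeR, with adjustment over all genes tested. The differences above are from the fit in which all conditions share 1 estimate of spread. When only the 6 libraries of a comparison were fitted, 0 of the 11 AA132 calls against vehicle passed. Under Tg 3 of 10 members were called (1 higher, 2 lower), where 31.2% of all genes were called (16.2% higher and 15% lower), so the share of members called was near that of all genes. Under AA132 at 6 µM 4 of 10 were called (1.07% of all genes). At 10, 15 and 30 µM the counts were 2, 3 and 2 (1.41%, 2.76% and 7.05% of all genes). Leaving out 1 library at a time gave 1 to 5, 2 to 4, 1 to 3 and 1 to 4 at these 4 doses. As the members were chosen with earlier results of these data known, these shares do not test for an excess. No member was called at 3 µM (0.118%), at 0.1, 0.3 or 1 µM (0% at each) or under AA147 (0.0225%). DESeq2 also called no member in these 5 comparisons. At an unadjusted p under 0.05 by edgeR, 0 members passed at 0.1 µM, 1 at 0.3 µM (EGR3), 1 at 1 µM (EGR1), 2 at 3 µM (FOSL1 and JUN) and 3 under AA147 (EGR1, IER2 and JUN). Members whose 3 libraries all lay on 1 side of all vehicle libraries numbered 3 under AA147 (7.46% of all genes did so) and 3 under Tg (38.2%). For AA132 they numbered 0, 2, 0 and 2 at 0.1, 0.3, 1 and 3 µM, where the shares of all genes were 7.28%, 8.25%, 7.86% and 11.2%. At 6, 10, 15 and 30 µM they numbered 6, 5, 4 and 3, where the shares were 14.8%, 10.3%, 16.1% and 18.9%. DESeq2 called 3 members under Tg and 4, 3, 4 and 3 at 6, 10, 15 and 30 µM. The median log2 fold change over the 10 members was -0.003 under Tg and 0.21 with AA132 at 3 µM. At the doses of 6, 10, 15 and 30 µM it was -0.23, -0.38, -0.12 and -0.25. Over all genes it lay between -0.002 and 0.01 in every comparison with vehicle.

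**Figure D2:**
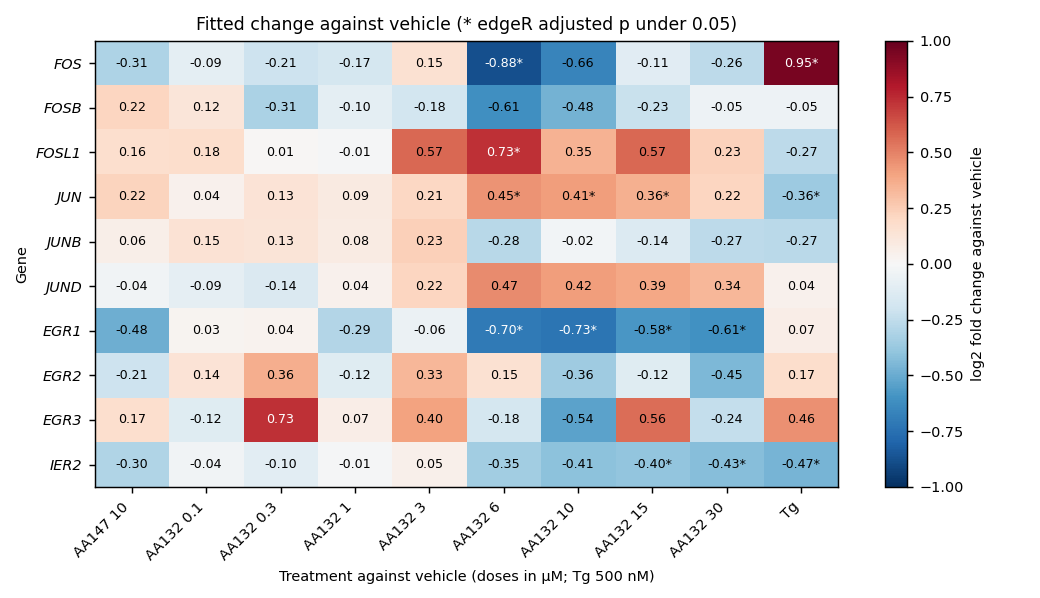
Fitted log2 fold change against vehicle (color and printed value) for each gene (rows) under each treatment (columns), from 3 libraries per condition. An asterisk marks an edgeR adjusted p under 0.05. FOS has the largest value, 0.95 under Tg, and no asterisk falls under AA147 or AA132 at 3 µM or below.

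FOS (chromosome 14, 75278826 to 75282230 in GENCODE v44, plus strand) encodes the AP-1 subunit that serum induces rapidly in resting cells. Its level was 2.55, 4.42 and 3.58 CPM in the 3 vehicle libraries and 6.60, 7.56 and 6.29 CPM under Tg. Every Tg library was above every vehicle library and above all 30 other libraries, of which the highest had 4.86 CPM (AA132 3 µM library 1). FOS rose under Tg by a log2 fold change of 0.95 (SE 0.19, edgeR adjusted p = 0.000234), and by 0.76 (adjusted p = 0.00378) without vehicle library 1.

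At 6 µM AA132 the FOS libraries had 2.31, 1.66 and 1.75 CPM, all below the lowest vehicle library. FOS fell by 0.88 on the log2 scale (SE 0.21, edgeR adjusted p = 0.0264), and by 1.06 (adjusted p = 0.00417) without vehicle library 1. This call was lost without vehicle library 2 (adjusted p = 0.114) or 3 (0.0735), and without AA132 6 µM library 2 (0.178) or 3 (0.14). At 10 µM FOS had 2.80, 2.11 and 1.72 CPM, which overlapped vehicle, and the log2 difference of -0.66 was not called (adjusted p = 0.114). It was called without vehicle library 1 (-0.85, adjusted p = 0.0193) and without AA132 10 µM library 1 (-0.88, adjusted p = 0.0412). At 15 and 30 µM FOS had means of 3.25 ± 0.55 and 2.94 ± 0.20 CPM (SD, n = 3), against 3.52 ± 0.94 CPM in vehicle, and neither difference was called.

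FOSL1 (chromosome 11, 65892049 to 65900573, minus strand) encodes FRA1, a FOS family protein that lacks the transactivation domain of FOS. It had 8.95, 6.79 and 8.94 CPM in vehicle and 12.6, 14.3 and 14.2 CPM at 6 µM AA132, with no overlap. FOSL1 rose by 0.73 on the log2 scale (SE 0.18, edgeR adjusted p = 0.0336; 0.80 and adjusted p = 0.0212 without vehicle library 1). The call was lost on leaving out vehicle library 2 (adjusted p = 0.111) or 3 (0.058), or AA132 6 µM library 1 (0.0666), 2 (0.136) or 3 (0.127). All FOSL1 libraries at 3 µM (13.8, 11.1 and 11.7 CPM) and 15 µM (12.4, 13.3 and 10.99 CPM) were also above vehicle, with log2 differences of 0.57 at both doses that were not called by edgeR (adjusted p = 0.301 and 0.084), though DESeq2 called that at 15 µM (0.0338). At 10 µM library 1 had 6.77 CPM and the other libraries 12.8 and 11.9, and at 30 µM the libraries overlapped vehicle.

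FOSB, whose protein resembles FOS and also exists as a shorter form, had a mean of 1.44 ± 0.13 CPM in vehicle (SD, n = 3). Its lowest mean was 0.94 ± 0.13 CPM at 6 µM AA132, where all libraries were below vehicle. The log2 difference of -0.61 was not called (95% interval -1.13 to -0.10, edgeR adjusted p = 0.297). Under Tg it had 1.39 ± 0.19 CPM, a log2 difference of -0.05 (interval -0.54 to 0.44).

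JUN (chromosome 1, 58776845 to 58784048, minus strand) encodes the AP-1 subunit that JUN N-terminal kinases phosphorylate. Its level was 117, 97.4 and 108 CPM in vehicle and 80.2, 86.7 and 84.6 CPM under Tg. Every Tg library was below all 30 other libraries, of which the lowest was vehicle library 2. JUN fell under Tg by 0.36 on the log2 scale (SE 0.07, edgeR adjusted p = 0.000145), and by 0.30 (adjusted p = 0.00145) without vehicle library 1.

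Under AA132 the direction was opposite. JUN libraries had 151.8, 140.9 and 148.2 CPM at 6 µM, 133.4, 150.0 and 146.8 CPM at 10 µM, and 142.4, 143.6 and 127.5 CPM at 15 µM, all above the highest vehicle library. JUN rose by 0.45 at 6 µM (edgeR adjusted p = 0.000308), 0.41 at 10 µM (0.000486) and 0.36 at 15 µM (0.00207) on the log2 scale, each with an SE of 0.07. These calls held on leaving out each library of the pair of conditions in turn, and without vehicle library 1 the values were 0.52, 0.48 and 0.42. At 30 µM JUN had 126.0, 124.3 and 125.2 CPM, again above vehicle, and the log2 difference of 0.22 narrowly missed the threshold (adjusted p = 0.0533). It passed without vehicle library 1 (0.28, adjusted p = 0.00829) and by DESeq2 (0.22, adjusted p = 0.029). Means at lower doses were 111.0, 118.1, 114.2 and 124.4 CPM at 0.1, 0.3, 1 and 3 µM, and none of these differences was called. In the order of the 11 condition means, only the step from vehicle (107.6 CPM) down to Tg (83.8 CPM) had libraries that did not overlap, out of 10 steps between neighbours.

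JUND (chromosome 19, 18279694 to 18281622, minus strand) encodes a JUN protein that is present in many resting cells. It had 42.8, 25.1 and 31.0 CPM in vehicle, a spread wide enough to cover most treated libraries. At 6 µM AA132 the libraries had 42.3, 47.0 and 47.9 CPM, of which library 1 was just below vehicle library 1. The log2 differences of 0.47, 0.42, 0.39 and 0.34 at 6, 10, 15 and 30 µM were not called (edgeR adjusted p = 0.216, 0.274, 0.242 and 0.269). Without vehicle library 1 they were 0.71, 0.65, 0.62 and 0.57 and all 4 passed (adjusted p = 0.0174, 0.0265, 0.0325 and 0.0258). That library had the highest JUND level in vehicle, and leaving out any other single library gave no JUND call at these doses. JUNB, which can oppose JUN at some promoters, was not called in any comparison with vehicle. Its means ran from 8.27 ± 0.77 CPM at 6 µM to 11.8 ± 0.83 CPM at 3 µM, with 10.0 ± 2.46 CPM in vehicle (SD, n = 3).

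EGR1 (chromosome 5, 138465479 to 138469303, plus strand) encodes the zinc finger protein that binds GC-rich sites of the kind marked in its own promoter above. It had 19.7, 24.6 and 23.7 CPM in vehicle. AA132 libraries had 14.4, 14.3 and 12.99 CPM at 6 µM, 12.1, 13.9 and 14.9 CPM at 10 µM, 12.9, 14.7 and 17.9 CPM at 15 µM, and 13.9, 16.4 and 14.3 CPM at 30 µM. All 12 lay below the lowest vehicle library. EGR1 fell by 0.70, 0.73, 0.58 and 0.61 on the log2 scale, each with an SE of 0.14 (edgeR adjusted p = 0.00614, 0.00288, 0.019 and 0.00691). Without vehicle library 1 it fell by 0.79, 0.83, 0.67 and 0.70. The call at 6 µM was lost without AA132 6 µM library 3 (adjusted p = 0.0535), and that at 15 µM without vehicle library 3 (0.0554) or AA132 15 µM library 1 (0.143) or 2 (0.0739).

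Under Tg EGR1 had 24.6, 24.8 and 21.8 CPM, which overlapped vehicle, and the log2 difference was 0.07 (95% interval -0.22 to 0.35). AA132 at 0.1, 0.3 and 3 µM gave means of 23.1, 23.3 and 21.7 CPM, near that of vehicle (22.7 CPM). At 1 µM library 1 had 12.7 CPM while the others had 21.9 and 21.0. EGR2 and EGR3, relatives that bind similar sites, were not called in any comparison of the full data. Their means over conditions ran from 0.54 to 0.94 CPM and from 0.46 to 1.09 CPM, and the 95% intervals against vehicle were wide, for Tg from -0.52 to 0.86 and from -0.19 to 1.11 on the log2 scale.

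IER2 (chromosome 19, 13150411 to 13154911, plus strand) had 31.3, 25.4 and 28.6 CPM in vehicle and 19.6, 22.8 and 19.2 CPM under Tg, with no overlap. IER2 fell under Tg by 0.47 on the log2 scale (SE 0.11, edgeR adjusted p = 0.0016), and by 0.40 without vehicle library 1. At 30 µM AA132 the libraries had 22.3, 20.6 and 20.4 CPM, and IER2 fell by 0.43 (SE 0.11, adjusted p = 0.0164; 0.0480 without vehicle library 1). This call was lost without AA132 30 µM library 2 (adjusted p = 0.0687) or 3 (0.0558). At 15 µM IER2 fell by 0.40 (adjusted p = 0.0497), a call lost without vehicle library 1 (0.133) or 3 (0.0839), without AA132 15 µM library 1 (0.151) or 3 (0.238), and with the library number as a block (0.0547). At 6 and 10 µM the log2 differences of -0.35 and -0.41 were not called (adjusted p = 0.154 and 0.0574). That at 10 µM was called without vehicle library 2 (0.0266) or AA132 10 µM library 2 (0.0139), and by DESeq2 (0.019).

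All 11 calls of AA132 doses against vehicle (4, 2, 3 and 2 at 6, 10, 15 and 30 µM) came from the fit in which all conditions share 1 estimate of spread. When only the 6 libraries of a comparison were fitted, 0 of the 11 passed (edgeR adjusted p = 0.0919 to 0.519), while the 3 calls under Tg did.

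**Figure D3:**
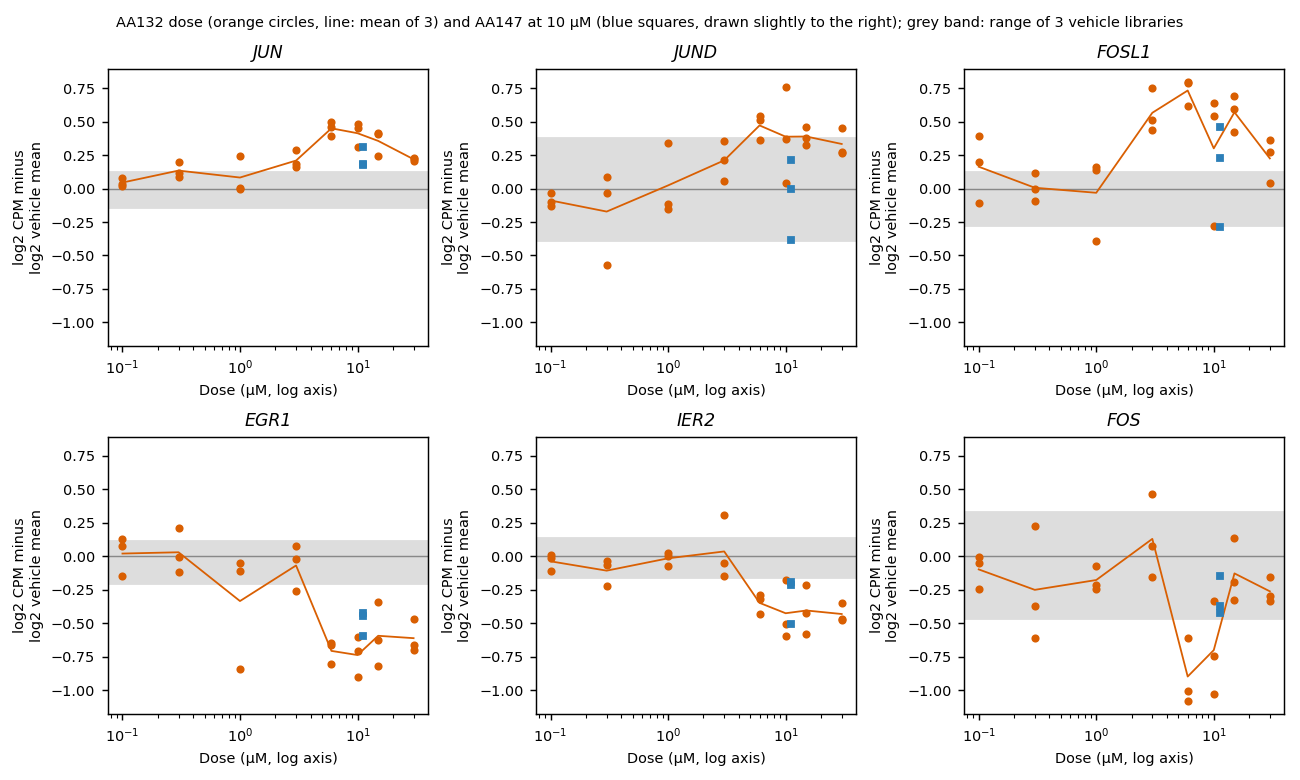
Level against AA132 dose (x axis in µM, log scale) as log2 CPM minus the log2 vehicle mean (y axis) for 6 of the genes. Orange circles are libraries, the line joins means of 3, blue squares are AA147 at 10 µM and the grey band spans the vehicle libraries. JUN lies above the band and EGR1 below it from 6 to 30 µM, and the mean of FOS is lowest at 6 µM.

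The dose trend was tested as a slope on log10 dose over the 24 AA132 libraries alone, without vehicle. Called were 5 of 10 members, 2 rising and 3 falling, where 18.7% of the 17554 genes tested were called (9.83% rising and 8.89% falling). Per 10-fold dose, EGR1 fell by 0.32 on the log2 scale (SE 0.05, edgeR adjusted p = 4.16e-05) and IER2 fell by 0.18 (SE 0.04, adjusted p = 0.0013). JUND rose by 0.25 (SE 0.05, adjusted p = 0.000146) and JUN by 0.13 (SE 0.03, adjusted p = 0.000769). This slope for JUND uses no vehicle library. JUNB fell by 0.16 (adjusted p = 0.017), a call lost without the 30 µM dose (-0.13, adjusted p = 0.125) or with vehicle added to the fit (-0.12, adjusted p = 0.0803). FOSL1 had a slope of 0.18 that was not called (adjusted p = 0.0593). It was called without the 30 µM dose (0.26, adjusted p = 0.0145), with vehicle added (0.21, adjusted p = 0.0167), and without library 2 at 0.1 µM (adjusted p = 0.031), library 1 at 10 µM (0.0167), or library 1 (0.0258) or 2 (0.0473) at 30 µM.

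A straight slope does not describe genes whose mean was most extreme at 6 µM, so 30 and 6 µM were also compared, a choice made after these values were seen. No member was called, where 3.59% of all genes were, and 4 had an unadjusted p under 0.05 by edgeR (FOS, FOSB, FOSL1 and JUN). JUN was lower at 30 µM by a log2 difference of -0.23 (95% interval -0.37 to -0.09, edgeR adjusted p = 0.0568), FOSL1 by -0.50 (-0.87 to -0.14, adjusted p = 0.118), and FOS was higher by 0.62 (0.19 to 1.06, adjusted p = 0.102). FOSB was higher by 0.56 (0.05 to 1.08, edgeR adjusted p = 0.237), and EGR1 had a difference of 0.10 (-0.20 to 0.39). JUN passed when only these 6 libraries were fitted (adjusted p = 0.0131) and by DESeq2 (0.0232), and FOSL1 passed in the former (0.0114).

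AA147 and AA132 were compared at the matched dose of 10 µM, 1 pair in all. No member was called by edgeR or DESeq2, where 0.0674% of all genes were called by edgeR. At an unadjusted p under 0.05 by edgeR, 4 members passed (EGR3, FOSB, JUN and JUND). FOSB was lower under AA132 than under AA147, with libraries at 0.97, 1.05 and 1.09 against 1.46, 1.72 and 1.84 CPM, and its log2 difference of -0.69 had a 95% interval of -1.19 to -0.19 (edgeR adjusted p = 0.395). The differences were 0.19 for JUN (0.05 to 0.33, adjusted p = 0.408), 0.45 for JUND (0.10 to 0.80, adjusted p = 0.439) and -0.25 for EGR1 (-0.54 to 0.05, adjusted p = 0.704). For EGR3 the difference was -0.70 (-1.40 to -0.006, edgeR adjusted p = 0.617). These intervals do not show that the compounds act alike on the members.

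The comparisons of AA147 and of AA132 at 10 µM with vehicle use the same vehicle libraries. Their log2 differences, AA147 first, were 0.22 and 0.41 for JUN, -0.48 and -0.73 for EGR1, -0.30 and -0.41 for IER2, -0.31 and -0.66 for FOS and 0.16 and 0.35 for FOSL1. For FOSB they were 0.22 and -0.48, for EGR3 0.17 and -0.54, for EGR2 -0.21 and -0.36, for JUNB 0.06 and -0.02 and for JUND -0.04 and 0.42. JUN had 122.0, 121.6 and 133.2 CPM under AA147 (edgeR adjusted p = 0.445), and EGR1 had 15.0, 16.9 and 16.7 CPM (adjusted p = 0.396), with no overlap with vehicle for either gene. Their unadjusted p-values from edgeR were 0.00318 and 0.00178. IER2 had 19.99, 24.5 and 24.8 CPM, all below vehicle (adjusted p = 0.594). 

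The highest AA132 dose was compared directly with Tg. Called were 4 of 10 members, where 29.8% of all genes were called. FOS was lower at 30 µM AA132 than under Tg, with a log2 difference of -1.21 (SE 0.20, edgeR adjusted p = 1.14e-05), and so was EGR1 (-0.67, SE 0.14, adjusted p = 0.000426). JUN was higher by 0.58 (SE 0.07, adjusted p = 7.89e-08). FOSL1 was higher by 0.50 (adjusted p = 0.0411), with 8.47, 9.91 and 10.6 CPM against 6.95, 6.36 and 7.22 CPM. The FOSL1 call was lost without AA132 30 µM library 2 (adjusted p = 0.093) or 3 (0.136), or Tg library 1 (0.0755), 2 (0.129) or 3 (0.0579). EGR2 was not called, with a log2 difference of -0.62 (adjusted p = 0.192), but passed without Tg library 3 (-0.93, adjusted p = 0.0493). IER2, called lower than vehicle under both treatments, differed between them by 0.04 (95% interval -0.19 to 0.27).

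Libraries of 1 condition differed more for some members than for genes of like level. The SD of log2 CPM within conditions, pooled over the 11 conditions, was 0.24 for JUND, at the 98.8th percentile of the 500 genes nearest in mean level. FOSL1 (0.25) was at the 97.2th percentile, EGR1 (0.20) at the 90.8th and JUNB (0.21) at the 86.4th. JUN, with 0.08, was at the 39.0th. JUN, JUNB and JUND are single-exon genes, as are 3.97% of the genes tested, and JUND has a transcript GC content of 69.9%, against a median of 48.8%.

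Deviations of libraries from their condition mean were compared between members over the 33 libraries, which share preparation and sequencing and are described without a test. Of the 45 pairs of members, JUN and JUND had the highest correlation (Pearson r = 0.78, Spearman rho = 0.78, and r = 0.72 without the 2 libraries farthest in JUN). JUN and EGR1 had the lowest (r = -0.50, rho = -0.40, and -0.33 without those libraries). The median over the 45 pairs was 0.12 and 26 were positive. The deviation in the GC slope of a library correlated with that of JUN (r = 0.61, rho = 0.54), JUND (0.59, 0.42), IER2 (0.47, 0.43) and FOS (-0.46, -0.28). Without vehicle libraries 1 and 2 these r values were 0.45, 0.40, 0.43 and -0.16.

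With an offset for transcript GC content in the fit, an alternative chosen after these values were seen, all 11 calls of AA132 doses against vehicle held. JUND was then also called at 6, 10 and 15 µM (log2 differences 0.50, 0.47 and 0.49, edgeR adjusted p = 0.0394, 0.0445 and 0.0236), JUN at 30 µM (0.22, adjusted p = 0.0132), IER2 at 6 and 10 µM (-0.36 and -0.39, adjusted p = 0.0487 and 0.0246) and FOSL1 at 15 µM (0.58, adjusted p = 0.0435). Under Tg the log2 fold changes became 0.97 for FOS, -0.29 for JUN and -0.33 for IER2, all still called (adjusted p = 0.000206, 0.000195 and 0.00773). JUNB went from -0.27 to -0.10 and JUND from 0.04 to 0.28, both not called. FOSL1 in AA132 at 30 µM against Tg was no longer called (0.40, adjusted p = 0.0757).

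**Figure D4:**
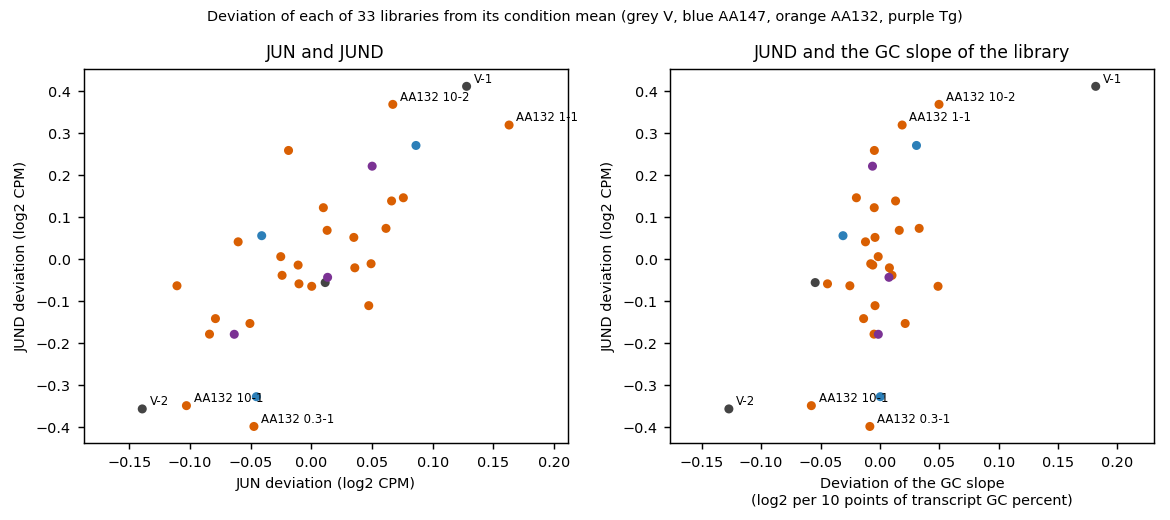
Deviation of log2 CPM of JUND from its condition mean (y axes) in each of 33 libraries, against the deviation of JUN (left) and of the GC slope of the library in log2 per 10 points of transcript GC percent (right). Colors mark the conditions and the outermost libraries are named. JUN and JUND deviate together (r = 0.78), and on the right vehicle libraries 1 and 2 stand at opposite ends.

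Genes whose condition means followed those of 3 members were sought among 11231 other genes, over the 11 condition means of log2 CPM. FOS was followed most closely by SAMD12 (r = 0.94), ADAL (0.93) and CIB1 (0.93), and without Tg these fell to 0.85, 0.82 and 0.81. JUN was followed by ENO2 (r = 0.98), ATP2C1 (0.97) and DUSP1 (0.97), with 0.95, 0.93 and 0.945 without Tg. DUSP1 encodes a phosphatase of mitogen-activated protein kinases and had 78.6 ± 3.95 CPM in vehicle, 70.6 ± 4.23 under Tg and 99.1 ± 2.62 at 6 µM AA132 (SD, n = 3). EGR1 was followed by ADAMTS15 (0.96), CPSF3L (0.93) and DYNC2H1 (0.92), with 0.95, 0.92 and 0.92 without Tg. These are the highest of many correlations over few points and are given with no test.

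Among 7 tested genes of AP-1 partner proteins, 3 were called higher under Tg (ATF2, ATF3 and JDP2) and none lower, where 16.2% of all genes were called higher and 15% lower. Their median log2 fold change was 0.04, against 0.005 over all genes. ATF3, a stress-induced ATF protein that pairs with JUN proteins, rose from 128 ± 5.71 to 304.2 ± 7.27 CPM (log2 fold change 1.25, edgeR adjusted p = 5.17e-15), and JDP2, which pairs with JUN and represses, from 2.01 ± 0.32 to 6.85 ± 0.95 CPM (1.77, adjusted p = 4.39e-09). At 30 µM AA132 ATF3 rose by 0.55 (adjusted p = 8.18e-06) to 187 ± 13.7 CPM and JDP2 by 0.71 (adjusted p = 0.0218). The JDP2 call at 30 µM was lost without vehicle library 2 (adjusted p = 0.0693) or 3 (0.0833) or AA132 30 µM library 1 (0.0589) or 3 (0.0704). ATF3 was thus called higher under Tg, where JUN was lower, and at 6 to 15 µM AA132, where JUN was higher. The corepressors NAB1 and NAB2, which bind EGR proteins, were not called in either comparison. Without vehicle library 1 under Tg, and without vehicle library 2 or by DESeq2 at 30 µM, 1 of them was called lower.

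Of 26 other immediate early genes, 5 were called higher under Tg (CTGF, KLF4, NR4A2, PTGS2 and ZFP36L1) and 4 lower (IER5, IER5L, KLF10 and SGK1), near the 16.2% and 15% of all genes. Without vehicle library 2 the number lower was 8, and without the filter on low counts 7. PTGS2, which encodes an inducible cyclooxygenase, rose from 3.79 ± 1.29 to 12.0 ± 1.33 CPM (log2 fold change 1.66), and the orphan nuclear receptor gene NR4A2 rose from 8.03 ± 0.60 to 16.3 ± 0.72 CPM (1.02). IER5L fell from 5.49 ± 1.77 to 3.21 ± 0.52 CPM (-0.77 on the log2 scale, and -0.50 without vehicle library 1) and IER5 from 30.8 ± 4.41 to 22.7 ± 1.95 CPM. MYC had 20.2 ± 1.08 CPM in vehicle and 22.5 ± 0.85 under Tg, which was not called (edgeR adjusted p = 0.23). At 30 µM AA132, 3 were called higher (DUSP1, NR4A2 and ZFP36) and 1 lower (2 without vehicle library 1), where 7.05% of all genes were called. ZFP36, whose protein promotes decay of AU-rich transcripts, rose from 3.46 ± 0.43 to 6.498 ± 0.50 CPM, and IER3 fell from 33.8 ± 6.51 to 19.1 ± 1.83 CPM. MYC had 23.5 ± 2.12 CPM (adjusted p = 0.182). The list medians were 0.10 under Tg and 0.13 at 30 µM, against 0.005 and -0.001 over all genes.

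Upstream of the members, 2 of 8 transcription factor genes were called higher under Tg, where 31.2% of all genes were called (16.2% higher). None was called at 30 µM AA132, where 7.05% of all genes were. Under Tg ELK1 had a log2 fold change of 0.30 (edgeR adjusted p = 0.00124, and 0.00671 without vehicle library 1). ATF1 had 0.24 (adjusted p = 0.04), a call lost without vehicle library 1 (0.14, adjusted p = 0.282) or Tg library 1 (0.167) or 3 (0.119), and with GC offsets (0.10, adjusted p = 0.358). SRF was not called. Of 13 kinase genes 4 were called under Tg, 2 in each direction, and none at 30 µM. Without vehicle library 1, 1 was called in each direction at 30 µM. The calls of MAP2K1 (0.17, adjusted p = 0.0402), MAP2K2 (0.24, adjusted p = 0.0424) and MAP2K4 (-0.17, adjusted p = 0.04) were each lost on leaving out any of several libraries. For MAP2K1 these were vehicle library 1 (adjusted p = 0.184) or 2 (0.115) and each Tg library (0.0841 to 0.138). For MAP2K2 they were vehicle library 2 (0.11, adjusted p = 0.384) or 3 (0.164) and Tg library 1 (0.202) or 3 (0.116), and for MAP2K4 the same libraries (0.0555 to 0.0952). RPS6KA1, which encodes the ERK-activated kinase RSK1, fell from 42.4 ± 5.02 to 25.5 ± 1.63 CPM (-0.73 on the log2 scale, adjusted p = 2.47e-09), and its call held in every alternative. These are transcript levels and not kinase activities. The list medians were -0.01 and 0.04 under Tg, and 0.08 and -0.02 at 30 µM.

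Of 18 tested genes that have been reported as AP-1 or EGR targets, 3 were called higher and 7 lower under Tg, where 16.2% of all genes were called higher and 15% lower. The list median was -0.15. Without vehicle library 1 or 2 or Tg library 1 or 2, 2 were called higher. MMP10, a secreted protease gene, rose from 1.35 ± 0.09 to 4.38 ± 0.23 CPM, and VEGFA, the vascular growth factor gene, from 15.6 ± 0.24 to 45.8 ± 3.45 CPM. CCND1, which encodes cyclin D1, fell from 35.1 ± 2.88 to 18.9 ± 0.69 CPM, and PLAUR, the urokinase receptor gene, from 14.1 ± 1.87 to 7.73 ± 0.88 CPM. At 30 µM AA132 the split was 3 higher (CD44, MMP10 and VEGFA) and 3 lower (CCND1, TGFB1 and THBS1), with a median of -0.10, where 7.05% of all genes were called. MMP10 rose to 2.42 ± 0.31 CPM and VEGFA to 21.4 ± 1.54 CPM, while CCND1 fell to 26.2 ± 2.48 CPM and THBS1 from 28.8 ± 6.38 to 22.1 ± 1.84 CPM. The number lower at 30 µM was 0 without AA132 30 µM library 2. At 30 µM the MMP10 call was lost without that library (adjusted p = 0.0751), the CCND1 call without vehicle library 3 (0.112) or AA132 30 µM library 2 (0.081) or 3 (0.114), and the THBS1 call without vehicle library 2 (0.146) or 3 (0.197) or any AA132 30 µM library (0.055 to 0.15). Of the 9 list genes named with values and called at 30 µM, 2 (ATF3 and ZFP36) passed when only the 6 libraries of the comparison were fitted, against 11 of 16 under Tg. Without vehicle library 1 all 9 calls at 30 µM held, and under Tg those of ATF1 and MAP2K1 were lost. Many of these genes also answer to other factors, and the part of the members in their levels was not tested.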

How the data were processed

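RNA sequencing was analysed from 33 libraries of HEK293T cells, 3 for each of 11 conditions. The deposited values are expected counts per gene, which the authors did not scale between libraries, per the file headers. The build was GRCh38.p7, per the submitters' processing notes. The aligner, counting tool, annotation and use of strand are not given in the sources used here, so reads of a gene and an overlapping antisense gene cannot be told apart. The value 0.009 stands in for 0 and was set to 0. Entries sharing a name were summed, and the expected counts were rounded to whole numbers.

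Tests used the quasi-likelihood method of edgeR 4.0.16 in R 4.3.3, with scaling by trimmed mean of M values (TMM) and its filter on low counts. A single fit held all conditions with no block for the library number, and Benjamini-Hochberg adjustment ran over all 17793 genes. The design compared each treatment with vehicle, AA132 with AA147 at 10 µM, AA132 at 30 µM with Tg, and a slope on log10 dose. AA132 at 30 against 6 µM was added after values were seen. CPM are counts divided by TMM-scaled library size, given with SD, and per kb uses GENCODE v44 transcript length. Intervals are 95% from the fitted t distribution and cover the spread between libraries only. Within conditions, libraries varied beyond counting error (chi-square per degree of freedom 4.67 to 64.5). Fits were tested on simulated data with changes of 1.3-, 1.5- and 2-fold. For Tg against vehicle, 26%, 62% and 72.5% of these changes were recovered, and 7.14%, 3.88% and 5.23% of calls were false. For the slope, with the fold spread over the dose range, 46%, 78% and 77% were recovered, and 6.12%, 4.88% and 3.14% of calls were false. The simulation changed far fewer genes than were called under Tg and held no GC trend between libraries. These rates therefore need not hold for the measured comparisons.

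The members and lists were chosen with earlier results of these data known. Named beyond the 10 members were, from each list under Tg and AA132 30 µM, at most 2 called genes that rose most and 2 that fell most, at a mean of at least 1 CPM, ATF3 and MYC always, and the 3 genes of at least 5 CPM most like FOS, JUN and EGR1. Other called list genes are named, without values, to complete small counts. Alternatives were DESeq2 1.42.0, its size factors, no filter, a replicate block, each library left out, fits of only the 2 conditions compared, slope settings, and GC offsets added after values were seen.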

Additional observations from a re-analysis of the deposited data

How the results depend on the processing

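Across alternatives, 1772 of 1870 member results were kept, meaning the same side of the threshold and the same direction. A result called in neither fit also counted as kept if it changed direction by less than its SE. Of the rest, 44 newly passed the threshold, 39 no longer passed, and 15 without a call changed direction by more. No called result reversed. Most of the 1870 results were not called in the main fit, so the share kept says little about the calls. The 3 calls under Tg held in every alternative, and scaling moved the median of all genes by at most 0.012 (log2). Without the filter on low counts, 6, 5, 5 and 3 members were called at 6, 10, 15 and 30 µM. That setting gave 1 call each under AA147, at 3 µM, for AA132 against AA147 and for AA132 at 30 against 6 µM. For AA132 at 30 µM against Tg it gave 5. Fitting only the 2 conditions gave 0 at 6, 10, 15 and 30 µM, and 2 for 30 against 6 µM. For AA132 at 30 µM against Tg it gave 5. Over all genes such fits called 74 at 30 µM against vehicle (1255 in the main fit). They called 1310 for 30 against 6 µM (638 in the main fit) and 6238 for 30 µM against Tg (5305). GC offsets gave 6, 4, 5 and 3 at 6, 10, 15 and 30 µM. They gave 3 for 30 µM against Tg and 1 for 30 against 6 µM. DESeq2 gave 3, 4 and 3 at 10, 15 and 30 µM and 1 for 30 against 6 µM. The causes of these changes were not tested. Leaving out 1 library at a time gave 3 to 3 under Tg, 1 to 5 at 6 µM, 2 to 4 at 10 µM, 1 to 3 at 15 µM, 1 to 4 at 30 µM, 3 to 4 for AA132 30 µM against Tg, 5 to 6 for the slope, and 0 in the other comparisons.

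Libraries with the same number showed little in common: of 165 such pairs, 2 had deviations correlated above 0.1 (median 0.0006). The labels do not say whether a shared number means a shared culture or day. The correlations of each library with those of other conditions were also averaged by library number. For 13 of 33 libraries the mean was highest for their own number. The replicate block moved the count at 15 µM from 3 to 2, through IER2 (edgeR adjusted p = 0.0547), and changed no other call of a member. FOSB, EGR2 and EGR3, at 9 to 75 counts per library, had SEs of 0.24 to 0.34 (log2) under Tg against 0.07 for JUN, so differences of the size seen in JUN were not detectable for them at this depth.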
